A study of Mus musculus with 19 samples.

Results

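Sterol regulatory element-binding proteins (SREBPs) are transcription factors that turn on the enzymes of cholesterol and fatty acid synthesis. The genes followed here are 33 of their targets and regulators, read in endothelial cells sorted from the brains of mice exposed to social defeat. A gene was read from the row of the array table that names it alone, or from the row with the highest mean over the 19 arrays where there were several such rows. Of the 33 genes, 28 had a row: 14 of the sterol branch, 10 of the fatty acid branch, 3 regulators and 1 gene of sterol transport. Acat2 matched no row, and the rows of Tm7sf2, Msmo1, Scd2 and Acsl3 also list another symbol, so these 5 genes were not analysed. Scd1, Fads2 and Acsl5 had 2 rows each.

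SREBPs are made as membrane proteins of the endoplasmic reticulum. When sterols are scarce, SCAP escorts them to the Golgi, where proteases release the part that enters the nucleus, and when sterols are plentiful INSIG proteins hold SCAP back. SREBP-2, the product of Srebf2, acts mainly on the sterol branch, and SREBP-1 mainly on the fatty acid branch. Brain cholesterol is made within the brain because the endothelium keeps lipoproteins out, and the same endothelium controls which polyunsaturated fatty acids enter.

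The animals were wild-type male C57BL/6N mice, 8 to 10 weeks old by the study's methods, and each array holds the cells of 1 animal. Home cage (HC) mice (animals 1, 2, 5 and 6, n = 4) met no aggressor, and defeated mice lived beside an aggressive CD-1 male and met him daily for 1 day (CSD1, animals 4, 18 and 19, n = 3), 7 days (CSD7, animals 9, 16, 17 and 25, n = 4) or 14 days (CSD14, animals 12 to 15, n = 4). CSDrec mice (animals 28 to 31, n = 4) had 14 days of defeat and then 7 days back in a home cage, a phase that the labels call Recreation. The daily meeting lasted 10 min by the labels of the CSD1, CSD7 and CSD14 animals and 5 min by the methods, and the CSDrec labels give no length. HC animal 5 is a home cage mouse by its title and source, although its diet label reads stressed, and it was kept in HC. By the methods, defeated mice with behaviour scores of stress susceptibility were chosen for the arrays. This cannot cover the CSD1 animals, whose group was left out of the behaviour tests. Brains without cerebellum, brainstem and meninges were taken 16 h after the last session, and live nucleated CD31-positive cells were sorted. For CSDrec the 16 h cannot hold as stated, because 7 days in a home cage followed the last session. The 4 HC animals serve as controls for all 4 stress groups, and the labels give no batch.

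Expression is given as log2 intensity, normalized by the authors before deposit. As a yardstick for expression, the 95th percentile of 1567 rows for olfactory, vomeronasal and taste receptors lay at log2 3.10, called the receptor level below, and 30198 of the 65956 tested rows had a mean higher than this. HC animals 1 and 2 stood apart from the other 17 animals: the SD over all tested rows was 1.58 and 1.54 in them and 1.72 to 1.84 elsewhere, and they were low in nearly every member. For rows above the receptor level the median differences of CSD1, CSD7, CSD14 and CSDrec from HC were 0.23, 0.22, 0.21 and 0.22, and they shrank to 0.057, 0.056, 0.050 and 0.051 with only HC animals 5 and 6 as controls. The comparisons with HC are therefore given with these 2 animals and, for the genes described in full, without them. Endothelial markers were above the receptor level in 14 of 14 cases, with means of 8.14 to 12.3. Most markers of other cells were weaker, but many lay above the receptor level. This held for all 11 astrocyte markers (means 3.53 to 5.91), all 11 microglia markers (3.32 to 6.61) and all 9 pericyte markers (3.92 to 8.72). It also held for 7 of 8 neuron markers, 7 of 11 oligodendrocyte markers (Mog, at 3.08, was below) and 6 of 7 border macrophage markers. The oligodendrocyte marker Mal, with a mean of 10.5, and the pericyte marker Rgs5, at 8.72, reached the range of the endothelial markers. The neuron marker Stmn2 lay just below that range. The pericyte mean was 4.52 and 4.49 in HC animals 1 and 2 and 6.87 and 6.66 in HC animals 5 and 6, so the HC group was split in this list too. In sorted bulk cells, fewer cells of a type and less RNA per cell cannot be told apart.

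Promoters are shown before the values because the genes were grouped by a shared regulator. RefSeq promoters (GRCm38.p6, 250 bases before to 50 after the start of the gene) were given for 26 of the 33 genes, 22 of which have a row. The sterol regulatory element, searched as TCACNCCAC on both strands, was found in 1 of these 22, Hmgcs1, against 1.44% of 27025 genes and 1.5% of genes with a row above the receptor level. The related sequence ATCACNTGA was in 0 of 22, against 1.07% of all genes. The CCAAT box bound by NF-Y, a partner of SREBPs at many targets, was in 17 of 22 (77.3%), against 41.1% of all genes. By branch, it was in 11 of 11 sterol genes and in 4 of 8 fatty acid genes. The Sp1 box GGGCGG, on either strand, was in 10 of 11 sterol genes and 2 of 8 fatty acid genes, against 62.9% of genes with a row above the receptor level. A match of letters describes the sequence and shows no binding. Below are the promoter of Hmgcs1 (the only one with the element), of Nsdhl (a sterol gene past the test in 3 comparisons, with 4 CCAAT boxes) and of Acly (the fatty acid gene with the lowest F-test p, with 1 box). Capitals mark the element and the CCAAT boxes, read as CCAAT or, on the other strand, ATTGG.

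Hmgcs1: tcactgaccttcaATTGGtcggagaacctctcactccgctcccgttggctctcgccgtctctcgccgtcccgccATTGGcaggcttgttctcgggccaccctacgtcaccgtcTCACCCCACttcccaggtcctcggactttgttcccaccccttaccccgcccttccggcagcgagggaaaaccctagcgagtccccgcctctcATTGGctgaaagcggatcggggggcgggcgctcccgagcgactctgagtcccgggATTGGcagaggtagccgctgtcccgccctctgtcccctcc
Nsdhl: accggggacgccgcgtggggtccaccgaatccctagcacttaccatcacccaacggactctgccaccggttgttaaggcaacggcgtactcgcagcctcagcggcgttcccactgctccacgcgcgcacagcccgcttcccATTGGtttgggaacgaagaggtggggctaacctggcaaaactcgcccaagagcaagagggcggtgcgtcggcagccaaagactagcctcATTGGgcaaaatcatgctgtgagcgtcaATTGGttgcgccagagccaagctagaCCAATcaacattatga
Acly: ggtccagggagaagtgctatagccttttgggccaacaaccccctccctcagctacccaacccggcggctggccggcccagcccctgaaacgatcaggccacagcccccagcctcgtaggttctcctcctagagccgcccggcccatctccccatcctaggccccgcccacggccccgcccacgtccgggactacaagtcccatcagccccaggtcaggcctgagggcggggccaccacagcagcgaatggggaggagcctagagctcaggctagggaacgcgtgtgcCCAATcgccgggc

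In Hmgcs1, at chr13:119690101-119690400 on the plus strand, the element reads TCACCCCAC and its last base lies 129 bases before the start. The Nsdhl window is chrX:72918271-72918570 on the plus strand, and the Acly window is chr11:100527951-100528250 on the minus strand.

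All 28 genes were expressed above the receptor level, the lowest being Elovl6, an elongase of saturated fatty acids, with a mean of 3.49. All 28 had a higher mean than HC in CSD1, CSD7, CSD14 and CSDrec. So did 26212, 25547, 25673 and 26762 of the 30198 rows above the receptor level. With limma over all 19 arrays and p adjusted over all rows, 13 of 28 rose in CSD1, 17 rose in CSD7, 11 rose in CSD14, and in CSDrec the number was 0. None of the 28 fell in any group. The background was 5.84%, 9.04%, 6.87% and 0.0167% of all rows called higher, or 12.6%, 19.2%, 14.6% and 0.0364% of rows above the receptor level, while 0.96%, 1.96%, 1.03% and 0% of all rows were called lower. At an unadjusted p under 0.05 the counts were 24, 27, 21 and 18 of 28, against 40.6%, 44.3%, 40.6% and 39.5% of rows above the receptor level.

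These calls rest on HC animals 1 and 2. Without both, 0 of 28 genes were called in any group, and 7, 12, 6 and 3 of 28 had an unadjusted p under 0.05, in the order CSD1 to CSDrec, against 3716, 4140, 4061 and 2826 of the 30198 rows above the receptor level. Against HC animals 5 and 6 alone, 27, 27, 24 and 18 of the 28 differences were still above 0. So were 20010, 19465, 18912 and 19650 of the 30198 rows above the receptor level. After quantile normalization of all arrays, 0, 1, 1 and 0 genes were called, the 1 gene being Lpin1 both times. Without HC animal 1 alone the counts were 0 in every group, and 0, 0, 4 and 0 without HC animal 2 alone. Leaving out HC animal 5 gave 24, 27, 19 and 16 calls, and leaving out HC animal 6 gave 23, 26, 21 and 19. Leaving out CSD1 animal 18 or 19 left 0 calls in CSD1.

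**Figure D1:**
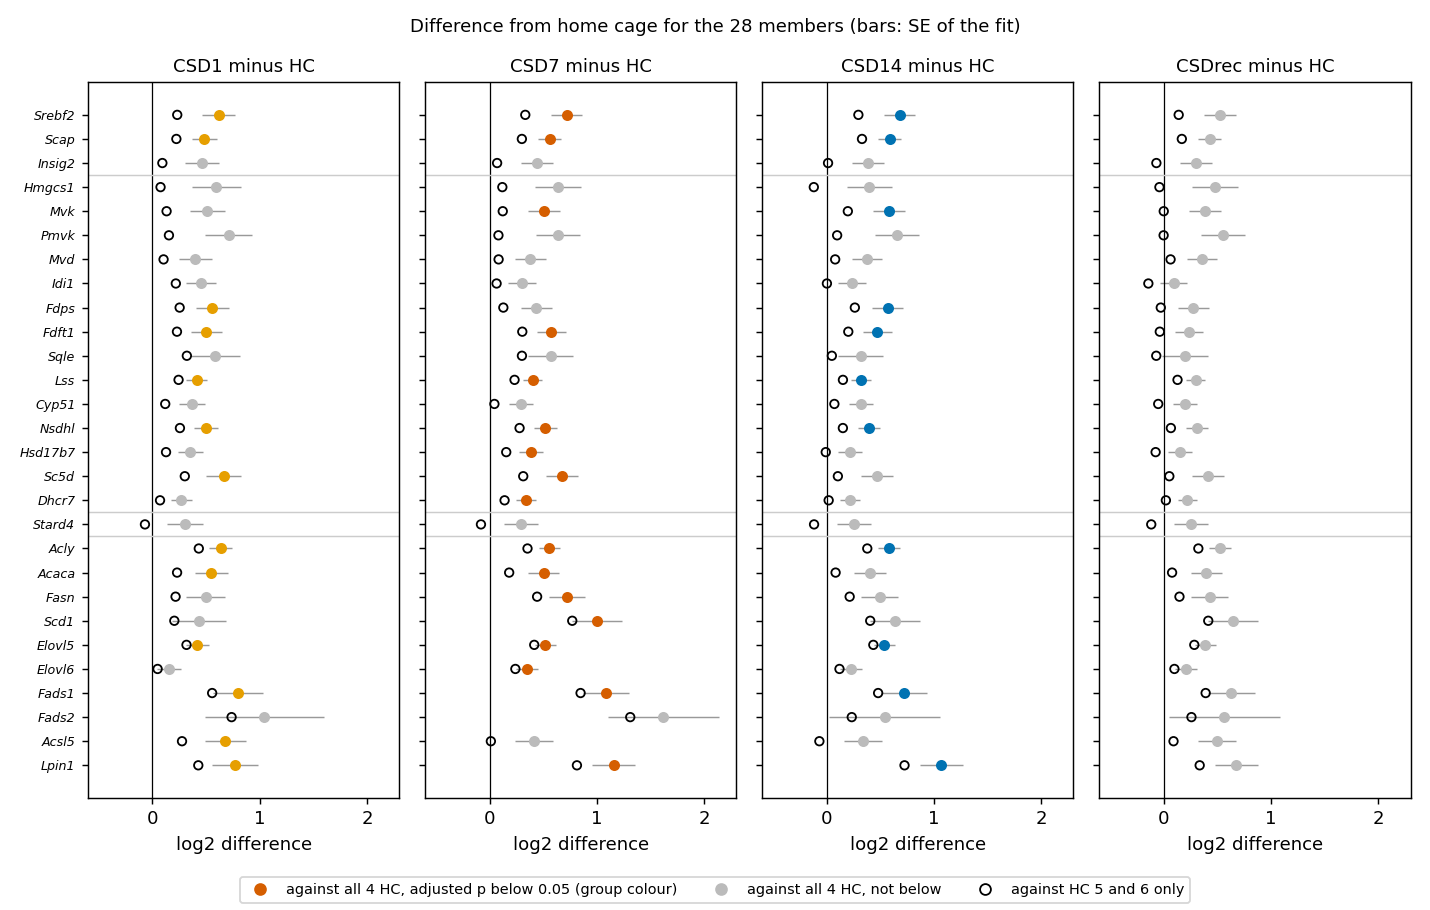
Log2 difference from HC of the 28 genes in each stress group, with the SE of the limma fit; filled points use all 4 HC animals (coloured where adjusted p is below 0.05) and open circles use HC animals 5 and 6 only. The filled points lie right of 0 for 28 of 28 genes in each panel, and the open circles lie closer to 0, with 18 of 28 right of it in CSDrec.

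An F-test over the 4 differences together passed 4 of the 28 genes: Acly (adjusted p = 0.0454), Elovl5 (0.0493), Lpin1 (0.0493) and Scap (0.0496), against 0.555% of all rows and 1.17% of rows above the receptor level. Of the 28, 22 had an unadjusted F-test p under 0.05, against 10184 of the 30198 rows above the receptor level. When HC animals 1 and 2 are left out, 0 of the 28 passed, as did 0 of all 65956 rows. An unadjusted F-test p under 0.05 was then seen for 10 of the 28, against 3714 of the 30198 rows above the receptor level. The genes described with a value for every animal are these 4 and, in each comparison, the 3 with the lowest p among the sterol genes, the fatty acid genes and the regulators. Fdft1, Fads2, Fads1, Scd1, Fasn and Sqle were added after their values had been seen.

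Of the regulators, Srebf2 and Scap rose in CSD1, CSD7 and CSD14, and Insig2 passed in no comparison. Srebf2, which encodes SREBP-2, read 5.63, 5.61, 6.40 and 6.38 in HC animals 1, 2, 5 and 6 and 6.45, 6.67 and 6.76 in CSD1 animals 4, 18 and 19. It read 6.83, 6.76, 6.64 and 6.67 in CSD7 animals 9, 16, 17 and 25, then 6.71, 6.66, 6.70 and 6.68 in CSD14 animals 12 to 15 and 6.51, 6.52, 6.54 and 6.56 in CSDrec animals 28 to 31. All 15 stressed animals lay above all 4 HC animals, but HC animals 1 and 2 lay further below HC animals 5 and 6 than these lay below the highest stressed animal. The CSD1 difference from HC was 0.62 (SE 0.16, adjusted p = 0.0355), followed by 0.72 (SE 0.15, 0.016) for CSD7, 0.68 (SE 0.15, 0.0183) for CSD14 and 0.53 (SE 0.15, 0.0653) for CSDrec, or 1.53-fold, 1.65-fold, 1.60-fold and 1.44-fold. Against HC animals 5 and 6 alone it was 0.23, 0.33, 0.30 and 0.14 (adjusted p = 0.404, 0.226, 0.205 and 0.727).

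Scap, the sterol-sensing escort of SREBPs, read 6.07, 6.09, 6.54 and 6.66 in HC and 6.67, 6.93 and 6.87 in CSD1, with the animals in the same order throughout. It read 6.88, 6.99, 6.79 and 6.95 in CSD7, 6.88, 6.92, 6.92 and 7.00 in CSD14, and 6.75, 6.82, 6.77 and 6.74 in CSDrec. Every stressed animal was above every HC animal, CSD1 animal 4 by the least. The differences were 0.48 (SE 0.12, adjusted p = 0.0322), 0.56 (SE 0.11, 0.0152), 0.59 (SE 0.11, 0.0133) and 0.43 (SE 0.11, 0.062), and 0.22, 0.30, 0.33 and 0.17 without HC animals 1 and 2. Insig2, which retains SCAP in the endoplasmic reticulum, read 4.68, 4.41, 5.28 and 5.30 in HC, 5.20, 5.54 and 5.40 in CSD1, 5.30, 5.43, 5.32 and 5.37 in CSD7, 5.36, 5.36, 5.18 and 5.30 in CSD14 and 5.26, 5.22, 5.13 and 5.26 in CSDrec. HC animals 5 and 6 lay within the range of the stressed animals, and only HC animals 1 and 2 were below it. Its differences of 0.46, 0.44, 0.38 and 0.30 had adjusted p = 0.0748, 0.0587, 0.1 and 0.199, and became 0.092, 0.071, 0.014 and -0.068 without those 2 animals.

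**Figure D2:**
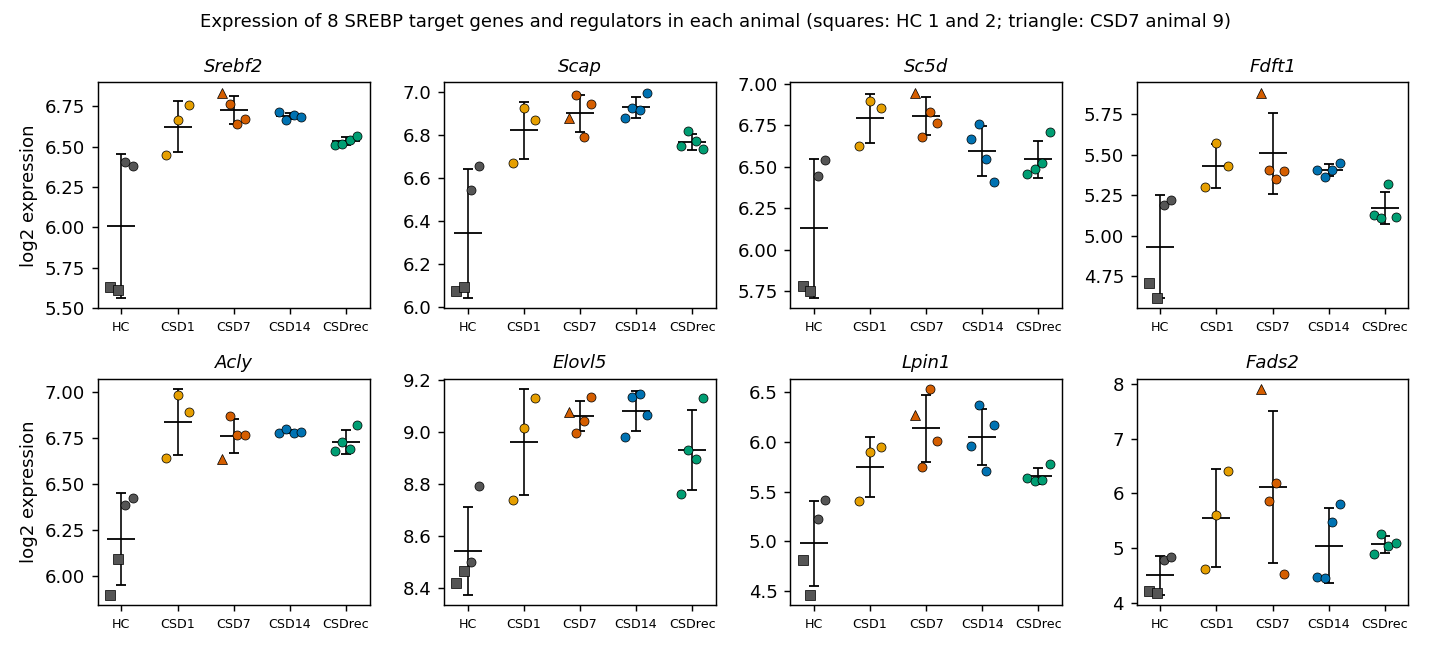
Log2 expression of 8 genes in each animal by group, with the group mean and SD as bars; squares are HC animals 1 and 2 and the triangle is CSD7 animal 9. For Srebf2 and Scap every stressed animal lies above every HC animal, and for Fads2 the CSD7 animals spread from 4.52 to 7.91.

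The mevalonate steps carry acetyl-CoA units to farnesyl diphosphate. Of the 6 genes of these steps with a row, 1 rose in CSD1 (Fdps), 1 in CSD7 (Mvk), 2 in CSD14 (Mvk and Fdps) and 0 in CSDrec. The share of rows above the receptor level called higher was 12.6%, 19.2%, 14.6% and 0.0364%, in the same order. Mvk, mevalonate kinase, read 4.08, 4.23, 4.94 and 4.90 in HC, 4.94, 5.23 and 4.97 in CSD1, 4.99, 5.25, 4.97 and 4.96 in CSD7, 5.15, 5.13, 5.15 and 5.04 in CSD14, and 4.83, 4.98, 4.90 and 4.96 in CSDrec. The CSD14 animals were the clearest group above HC animals 5 and 6, and the CSDrec animals overlapped them. The differences were 0.51 (adjusted p = 0.0599), 0.50 (0.0411), 0.58 (0.0314) and 0.38 (0.127), with SE of 0.15 to 0.16, and 0.13, 0.12, 0.20 and 0.00088 without HC animals 1 and 2. Fdps, farnesyl diphosphate synthase, read 4.67, 4.68, 5.39 and 5.18 in HC, 5.42, 5.60 and 5.59 in CSD1, 5.50, 5.64, 5.15 and 5.36 in CSD7, 5.69, 5.55, 5.47 and 5.48 in CSD14, and 5.39, 5.27, 5.37 and 5.01 in CSDrec. CSD1 and CSD14 did not overlap HC, while CSD7 and CSDrec did. Its differences were 0.56 (adjusted p = 0.0437), 0.43 (0.0587), 0.57 (0.0295) and 0.28 (0.226), and 0.25, 0.13, 0.26 and -0.027 against HC animals 5 and 6 alone.

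The other 4 mevalonate genes passed in no comparison. Hmgcs1, the synthase at the entry of the pathway and the gene with the sterol regulatory element shown above, read 5.76, 5.51, 6.70 and 6.64 in HC and 6.42, 6.90 and 6.91 in CSD1, and ranged from 6.59 to 7.03 in CSD7, 6.47 to 6.63 in CSD14 and 6.40 to 6.85 in CSDrec. CSD1, CSD7 and CSDrec spread to both sides of HC animals 5 and 6, and the CSD14 animals lay just below both. Its differences of 0.59, 0.64, 0.40 and 0.48 became 0.076, 0.12, -0.12 and -0.039 without HC animals 1 and 2. Pmvk, phosphomevalonate kinase, had the largest difference of the 6 in CSD1 (0.71, adjusted p = 0.0587), and 0.15 without those 2 animals. Mvd, the decarboxylase, and Idi1, the isomerase, differed by 0.40 and 0.45 in CSD1 and by 0.36 and 0.092 in CSDrec.

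The squalene and sterol steps close the sterol rings and finish cholesterol. Of the 8 genes with a row, 4 rose in CSD1 (Fdft1, Lss, Nsdhl and Sc5d) and 6 in CSD7 (these 4, Hsd17b7 and Dhcr7). In CSD14 3 rose (Fdft1, Lss and Nsdhl) and in CSDrec 0. From CSD1 to CSDrec, 12.6%, 19.2%, 14.6% and 0.0364% of rows above the receptor level were called higher. Nsdhl, a sterol dehydrogenase, read 4.82, 4.81, 5.34 and 5.25 in HC, 5.37, 5.64 and 5.65 in CSD1, 5.60, 5.53, 5.58 and 5.59 in CSD7, 5.56, 5.43, 5.43 and 5.37 in CSD14, and 5.38, 5.28, 5.40 and 5.40 in CSDrec. The CSD7 animals were tightly grouped and CSDrec overlapped HC. Its differences were 0.50 (adjusted p = 0.0303), 0.52 (0.0159), 0.39 (0.0341) and 0.31 (0.0924), with SE of 0.10 to 0.11, and 0.26, 0.28, 0.15 and 0.067 without HC animals 1 and 2.

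Sc5d, a sterol desaturase, read 5.78, 5.75, 6.44 and 6.54 in HC, 6.62, 6.90 and 6.86 in CSD1, 6.95, 6.68, 6.83 and 6.76 in CSD7, 6.67, 6.76, 6.55 and 6.41 in CSD14, and 6.46, 6.49, 6.52 and 6.71 in CSDrec. CSD1 and CSD7 lay above HC, and CSD14 and CSDrec overlapped it. The differences were 0.66 (adjusted p = 0.0322), 0.68 (0.0187), 0.47 (0.0595) and 0.42 (0.105), or 0.30, 0.31, 0.11 and 0.053 without HC animals 1 and 2. Lss, which closes the sterol rings, read 3.58, 3.62, 3.90 and 3.97 in HC, 4.07, 4.21 and 4.25 in CSD1, 4.22, 4.23, 4.26 and 3.96 in CSD7, 4.10, 4.08, 4.18 and 3.99 in CSD14, and 4.05, 4.08, 3.99 and 4.14 in CSDrec. Only CSD7 animal 25 fell among the HC animals. Its differences of 0.41, 0.40 and 0.32 passed in CSD1, CSD7 and CSD14 (adjusted p = 0.0319, 0.0198 and 0.0415), and 0.30 in CSDrec did not (0.077). HC animals 5 and 6 alone gave 0.24, 0.23, 0.15 and 0.13.

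Fdft1, squalene synthase, read 4.71, 4.61, 5.19 and 5.22 in HC, 5.30, 5.57 and 5.43 in CSD1, 5.88, 5.41, 5.35 and 5.40 in CSD7, 5.41, 5.36, 5.40 and 5.45 in CSD14 and 5.13, 5.11, 5.32 and 5.12 in CSDrec. The 3 groups taken during defeat lay above HC, and CSDrec overlapped it. The differences were 0.50, 0.58, 0.47 and 0.24 (adjusted p = 0.0469, 0.0207, 0.0402 and 0.263), and 0.23, 0.31, 0.20 and -0.036 with HC animals 5 and 6 as controls. Sqle, squalene epoxidase, read 3.32, 3.30, 3.87 and 3.82 in HC, 3.70, 4.28 and 4.53 in CSD1, 4.91, 4.05, 3.92 and 3.72 in CSD7, 3.88, 3.78, 4.06 and 3.87 in CSD14, and 3.69, 3.78, 3.88 and 3.77 in CSDrec. It was the most uneven sterol gene in CSD7, with animal 9 highest, and its differences of 0.59, 0.57, 0.32 and 0.20 passed in no group. Without CSD7 animal 9 the CSD7 difference was 0.32. Hsd17b7 and Dhcr7, late enzymes of cholesterol synthesis, differed in CSD7 by 0.38 and 0.34 (adjusted p = 0.0373 and 0.0293), and without animal 9 by 0.38 and 0.31 (0.0698 and 0.065). Against HC animals 5 and 6 alone they differed in CSD7 by 0.16 and 0.14 (limma adjusted p = 0.647 and 0.571). Cyp51, the demethylase of lanosterol, passed nowhere (0.20 to 0.37). Stard4, a carrier of cholesterol between membranes, differed by 0.26 to 0.30 in all 4 groups and by -0.070 to -0.12 without HC animals 1 and 2.

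Over the 14 sterol genes, 5, 7, 5 and 0 rose, against 12.6%, 19.2%, 14.6% and 0.0364% of rows above the receptor level. Their median difference from HC was 0.50, 0.47, 0.39 and 0.29 from CSD1 to CSDrec. Against HC animals 5 and 6 alone the medians were 0.19, 0.13, 0.089 and -0.013, beside 0.057, 0.056, 0.050 and 0.051 for rows above the receptor level. In CSDrec, 6 of the 14 genes were then above 0.

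In the fatty acid branch, 6, 8, 4 and 0 of 10 genes rose in CSD1, CSD7, CSD14 and CSDrec, beside the same shares of rows. Its median difference was 0.59, 0.64, 0.54 and 0.51, and 0.30, 0.43, 0.31 and 0.27 against HC animals 5 and 6 alone, with 10, 10, 9 and 10 of 10 genes above 0. Acly, which makes cytosolic acetyl-CoA from citrate, read 5.90, 6.09, 6.39 and 6.42 in HC, 6.64, 6.98 and 6.89 in CSD1, 6.64, 6.87, 6.77 and 6.77 in CSD7, 6.78, 6.80, 6.78 and 6.78 in CSD14, and 6.68, 6.73, 6.69 and 6.82 in CSDrec. All 15 stressed animals were above all 4 HC animals, also above HC animals 5 and 6 by more than those 2 differed. Its differences were 0.64 (SE 0.11, adjusted p = 0.027), 0.56 (SE 0.10, 0.0152), 0.58 (SE 0.10, 0.0129) and 0.53 (SE 0.10, 0.0554), or 1.56-fold, 1.47-fold, 1.50-fold and 1.44-fold. With HC animals 5 and 6 as the only controls they shrank to 0.43, 0.35, 0.38 and 0.32 (adjusted p = 0.302, 0.226, 0.163 and 0.549).

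Acaca, which makes malonyl-CoA, rose in CSD1 (0.55, adjusted p = 0.0453) and CSD7 (0.50, 0.0367). Fasn, fatty acid synthase, read 4.10, 4.06, 4.65 and 4.64 in HC, 4.73, 4.85 and 4.99 in CSD1, 5.72, 5.00, 4.87 and 4.75 in CSD7, 4.82, 4.76, 4.95 and 4.90 in CSD14, and 4.79, 4.84, 4.74 and 4.79 in CSDrec. No stressed animal overlapped HC, and CSD7 animal 9 stood well above the rest. The difference passed in CSD7 only (0.72, adjusted p = 0.0215), and there it was 0.51 (0.0357) without animal 9. Relative to HC animals 5 and 6, Fasn differed by 0.22, 0.44, 0.22 and 0.15 and Acaca by 0.23, 0.18, 0.084 and 0.079.

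Elovl5, an elongase of polyunsaturated fatty acids, read 8.42, 8.46, 8.50 and 8.79 in HC, 8.74, 9.02 and 9.13 in CSD1, 9.07, 8.99, 9.04 and 9.13 in CSD7, 8.98, 9.13, 9.14 and 9.06 in CSD14, and 8.76, 8.93, 8.90 and 9.13 in CSDrec. Here HC animal 5 sat with HC animals 1 and 2, and HC animal 6 was the 1 HC animal that overlapped CSD1 and CSDrec. The differences were 0.42 (SE 0.11, adjusted p = 0.0347), 0.52 (SE 0.097, 0.0152), 0.54 (SE 0.097, 0.0133) and 0.39 (SE 0.097, 0.0619), and 0.32, 0.42, 0.44 and 0.29 without HC animals 1 and 2. Elovl6 passed in CSD7 only, at 0.35 (adjusted p = 0.0425), and was at 0.25 (0.112) without animal 9. Against HC animals 5 and 6 alone its CSD7 difference was 0.24 (limma adjusted p = 0.575).

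Lpin1, a phosphatidate phosphatase that also acts in the nucleus, had the largest difference of the 28 in CSD14. It read 4.81, 4.47, 5.23 and 5.42 in HC and 5.40, 5.90 and 5.94 in CSD1. It then read 6.26, 5.75, 6.53 and 6.01 in CSD7, 5.95, 6.37, 5.70 and 6.17 in CSD14 and 5.63, 5.61, 5.61 and 5.78 in CSDrec. CSD1 animal 4 overlapped HC, and every animal of the other groups lay above HC. The differences were 0.77 (SE 0.22, adjusted p = 0.0439), 1.16 (SE 0.20, 0.0152), 1.07 (SE 0.20, 0.0136) and 0.68 (SE 0.20, 0.0718), or 1.71-fold, 2.23-fold, 2.10-fold and 1.60-fold. After quantile normalization it kept its call in CSD7 (adjusted p = 0.0482) and CSD14 (0.0388), and against HC animals 5 and 6 alone it was at 0.43, 0.81, 0.73 and 0.34 (0.607, 0.232, 0.234 and 0.759). Acsl5, which activates long-chain fatty acids, rose in CSD1 (0.68, adjusted p = 0.0445), and was at 0.42, 0.34 and 0.50 in the other groups. The mean of its 2 rows gave 0.28 in CSD1 and no call (0.26), and without HC animals 1 and 2 the differences were 0.28, 0.013, -0.067 and 0.092.

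Among the desaturases, Fads1 rose in CSD1, CSD7 and CSD14, Scd1 in CSD7 and Fads2 in no group. Fads1, a desaturase of polyunsaturated fatty acids, read 5.36, 5.71, 5.90 and 6.13 in HC, 6.17, 6.69 and 6.84 in CSD1, 7.60, 6.75, 6.72 and 6.36 in CSD7, 6.32, 6.36, 6.55 and 6.73 in CSD14 and 6.21, 6.52, 6.41 and 6.47 in CSDrec. All 15 stressed animals were above all HC animals. The differences were 0.80 (adjusted p = 0.0486), 1.09 (0.0156), 0.72 (0.0487) and 0.63 (0.0935), with SE of 0.22 to 0.23. Fads2, the desaturase that acts before Fads1, read 4.22, 4.18, 4.78 and 4.85 in HC, 4.62, 5.61 and 6.42 in CSD1, 7.91, 5.87, 6.19 and 4.52 in CSD7, 4.47, 4.45, 5.47 and 5.80 in CSD14, and 4.89, 5.26, 5.04 and 5.10 in CSDrec. Within CSD1, CSD7 and CSD14 some animals lay among HC while others were far above, and only CSDrec lay wholly above HC. Its differences of 1.04, 1.62, 0.54 and 0.57 (SE 0.52 to 0.56) therefore passed in no group (adjusted p = 0.216, 0.0517, 0.503 and 0.49). Scd1, which makes monounsaturated fatty acids, read 4.83, 4.72, 5.15 and 5.31 in HC, 5.32, 5.49 and 5.49 in CSD1, 7.04, 5.58, 5.90 and 5.49 in CSD7, 5.63, 5.69, 5.64 and 5.59 in CSD14, and 5.50, 5.71, 5.51 and 5.86 in CSDrec. No stressed animal was below an HC animal, CSD1 animal 4 exceeding HC animal 6 by the least. The difference was 1.00 in CSD7 (SE 0.24, adjusted p = 0.0216) and 0.43, 0.64 and 0.64 in CSD1, CSD14 and CSDrec (0.258, 0.0917 and 0.108). The mean of its 2 rows gave 0.45 in CSD7, which did not pass (adjusted p = 0.076). With HC animals 5 and 6 as the only controls, Fads1 differed by 0.56, 0.85, 0.48 and 0.39, Fads2 by 0.74, 1.31, 0.23 and 0.26 and Scd1 by 0.20, 0.77, 0.41 and 0.42.

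CSD7 animal 9 had the highest Fads2, Fads1, Scd1, Fasn and Elovl6 of all 19 animals. The same held for the sterol genes Sqle, Hmgcs1, Fdft1, Sc5d and Dhcr7 and for Srebf2. This animal also had the highest astrocyte (6.28), microglia (6.23) and neuron (4.81) marker means of the 19. Its border macrophage mean was 4.20, against 3.06 to 3.26 in the other CSD7 animals, and its endothelial mean of 9.85 was the lowest of the 15 stressed animals. A high border macrophage mean was not particular to it. In CSDrec animals 28 to 31 this mean was 4.20, 4.14, 4.62 and 3.15, against 3.03 to 3.15 in HC. Without CSD7 animal 9 the CSD7 differences were 1.02 for Fads2 (adjusted p = 0.131), 0.84 for Fads1 (0.0258) and 0.65 for Scd1 (0.0246). The astrocyte means of CSD7 animals 16, 17 and 25 were 4.75, 4.91 and 4.21, in the same order as their Fads2 values. In CSD1 they were 4.21, 4.69 and 5.26 in animals 4, 18 and 19, again in the order of Fads2. They were 3.89, 3.97, 4.16 and 4.09 in HC, 4.25, 4.21, 4.46 and 4.38 in CSD14 and 4.49, 4.47, 4.44 and 4.56 in CSDrec, and in these 3 groups the order was not that of Fads2. Of the 11 astrocyte markers, 1, 4, 1 and 0 were called higher than HC in CSD1, CSD7, CSD14 and CSDrec. The shares of rows above the receptor level were 12.6%, 19.2%, 14.6% and 0.0364%. Of the 11 microglia markers, 4, 10, 2 and 0 were called higher, and their mean was 4.07 to 4.36 in HC and 4.49 to 5.84, 4.72 to 6.23, 4.86 to 5.23 and 4.92 to 5.57 in the 4 stress groups. The part of these cells in the values of the sterol and fatty acid genes was not tested.

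**Figure D3:**
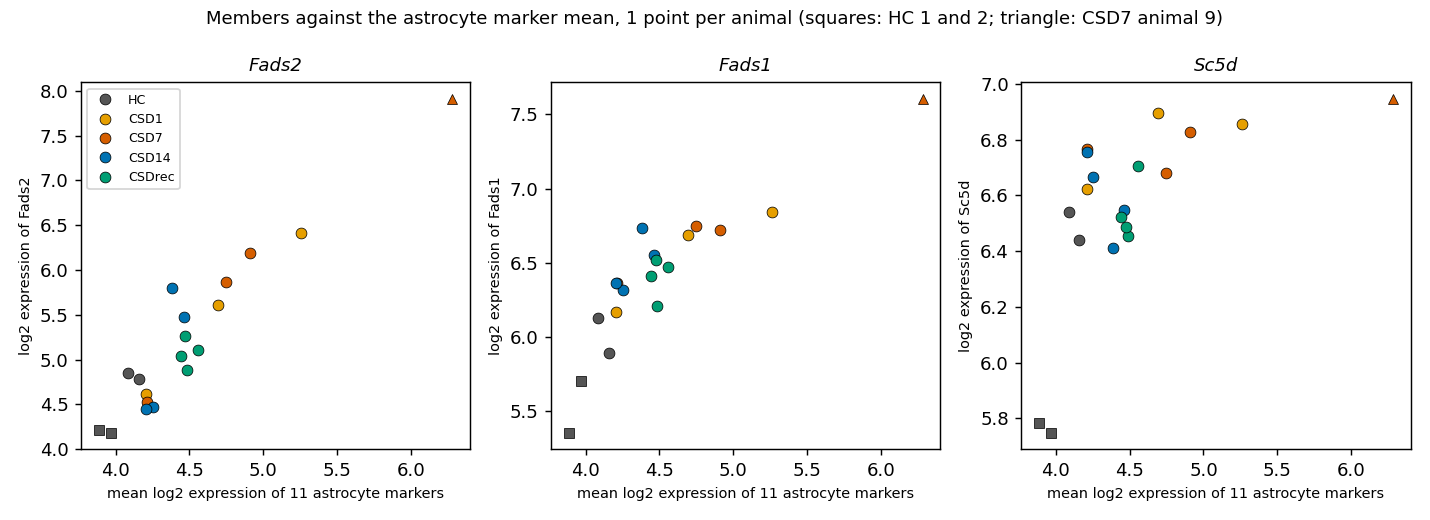
Log2 expression of Fads2, Fads1 and Sc5d against the mean of 11 astrocyte markers, 1 point per animal, coloured by group (squares: HC animals 1 and 2, triangle: CSD7 animal 9). Fads2 reaches 7.91 in the animal with the highest astrocyte mean, 6.28. It follows the order of that mean within CSD1 and CSD7 but not within the other groups. Sc5d lies between 6.41 and 6.95 in 17 animals, and its highest value is in CSD7 animal 9 too.

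The branches were set beside each other within each animal as the mean of the 10 fatty acid genes minus the mean of the 14 sterol genes. This gap was 0.83, 0.84, 0.65 and 0.80 in HC (mean 0.78, SD 0.086), 0.75, 0.91 and 1.00 in CSD1 (0.89, SD 0.13), 1.37, 0.95, 1.17 and 0.90 in CSD7 (1.10, SD 0.22), 0.79, 0.90, 0.94 and 1.13 in CSD14 (0.94, SD 0.14) and 0.92, 1.03, 0.89 and 1.08 in CSDrec (0.98, SD 0.087). HC animals 1 and 2 did not stand apart in the gap as they did in each branch, where their sterol means were 4.32 and 4.29 against 4.93 and 4.90, and their fatty acid means 5.15 and 5.12 against 5.58 and 5.71. All CSD7 and CSDrec animals had a larger gap than all HC animals, CSD1 and CSD14 overlapped HC, and CSD7 animal 9 had the largest. No p is given for the gap, since its genes were chosen with earlier results known. In CSDrec the sterol means were 4.88 to 4.95, beside those of HC animals 5 and 6, and the fatty acid means were 5.81 to 5.99, above both.

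**Figure D4:**
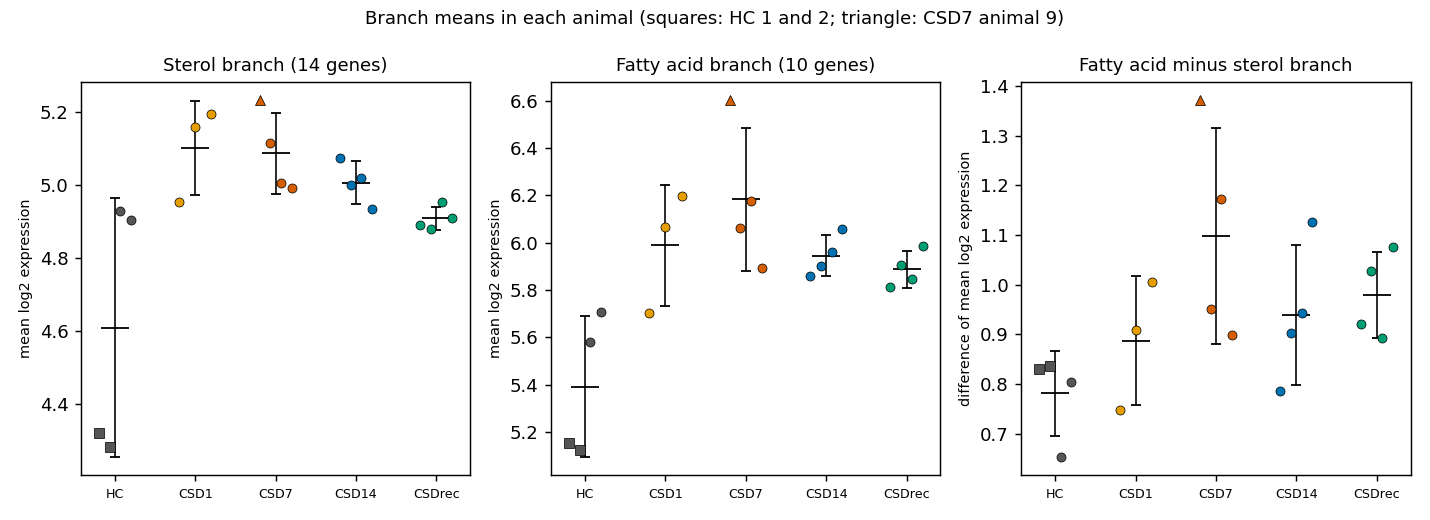
Mean log2 expression of the 14 sterol genes, of the 10 fatty acid genes, and their difference, in each animal, with group mean and SD as bars (squares: HC animals 1 and 2, triangle: CSD7 animal 9). CSDrec animals lie at 4.88 to 4.95 in the sterol panel, beside HC animals 5 and 6, and at 5.81 to 5.99 in the fatty acid panel, above them.

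Counted by animals, every stressed animal exceeded every HC animal for 15 of the 28 genes in CSD1, for 16 in CSD7, for 13 in CSD14 and for 10 in CSDrec, against 19.5%, 14.8%, 19.5% and 15.7% of rows above the receptor level. By branch these were 9, 6, 5 and 1 of 14 sterol genes and 4, 7, 6 and 7 of 10 fatty acid genes. The 1 sterol gene in CSDrec was Lss. The fatty acid genes in CSDrec were Acly, Fasn, Scd1, Elovl6, Fads1, Fads2 and Lpin1. A difference between the branches was not tested.

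Between the stress groups, 0 of 65956 rows passed in CSD7 against CSD1, CSD14 against CSD7, CSD14 against CSD1 or CSDrec against CSD14 (0% in each, limma adjusted p), and 910, 1006, 1900 and 2420 rows had an unadjusted p under 0.05. Among the 28 genes, 1, 0, 0 and 0 did. The 1 gene was Scd1, higher in CSD7 than in CSD1 by 0.57 (SE 0.25, unadjusted p = 0.039, adjusted p = 1). These tests share 1 estimate of the spread with the HC animals. With HC animals 1 and 2 left out of the fit, 2, 2, 1 and 6 of the 28 genes had an unadjusted limma p under 0.05. The same held for 1118, 1095, 2503 and 2515 of the 30198 rows above the receptor level. From CSD14 to CSDrec the median change was -0.092 for the sterol genes and -0.038 for the fatty acid genes, with 2 of 14 and 3 of 10 above 0. The largest falls from CSD14 to CSDrec were in Lpin1 (-0.39), Fdps (-0.29) and Fdft1 (-0.24), each with an adjusted p of 1 in limma.

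Other genes of the same pathways were read from lists chosen with earlier results known. Their calls too rest on HC animals 1 and 2: without both, 0 genes of the 4 lists described next were called in any group or passed the F-test, and after quantile normalization at most 1 gene of a list was called in a group. Of 6 further sterol genes, 2, 3, 3 and 0 rose in CSD1, CSD7, CSD14 and CSDrec. Of rows above the receptor level, 12.6%, 19.2%, 14.6% and 0.0364% were called higher. Ebp, a sterol isomerase, differed by 0.42, 0.40, 0.45 and 0.20, and Rdh11, a retinol dehydrogenase, by 0.73, 0.61, 0.74 and 0.49. Without those 2 animals Ebp was at 0.28, 0.26, 0.30 and 0.051, and Rdh11 at 0.30, 0.18, 0.31 and 0.059. Insig1, the partner of Insig2 and itself an SREBP target, differed by 0.49, 0.63, 0.69 and 0.52, with adjusted p = 0.0487 in CSD7 and 0.0421 in CSD14. Set against HC animals 5 and 6 its differences were 0.016, 0.15, 0.21 and 0.039. Of 28 further fatty acid genes, 11, 20, 13 and 0 rose, beside the same shares of rows. Slc25a1, the citrate carrier that feeds Acly, differed by 0.53, 0.50, 0.62 and 0.46, and Hsd17b12, a reductase of the elongation cycle, by 0.87, 0.76, 0.61 and 0.33. Tecr, the last reductase of that cycle, differed by 0.56, 0.70, 0.61 and 0.44. Relative to HC animals 5 and 6, Slc25a1 differed by 0.30, 0.28, 0.40 and 0.23, Hsd17b12 by 0.49, 0.37, 0.23 and -0.056, and Tecr by 0.30, 0.43, 0.34 and 0.17. Thrsp, a lipogenic protein, was the 1 gene of this list to pass the F-test (adjusted p = 0.0493). It differed by 0.58, 0.59, 0.59 and 0.16, and without HC animals 1 and 2 the differences were 0.55, 0.57, 0.56 and 0.13, with no call and no pass in the F-test.

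Of 7 further genes that process SREBPs, 2, 3, 2 and 0 rose, against 12.6%, 19.2%, 14.6% and 0.0364% of rows above the receptor level. Mbtps1, the protease that makes the initial cut, differed by 0.70, 0.67, 0.67 and 0.59, and Erlin2, a protein of the endoplasmic reticulum that binds the SREBP complex, by 1.01, 1.02, 0.90 and 0.84. Against HC animals 5 and 6 alone they differed by 0.29, 0.27, 0.26 and 0.19, and by 0.45, 0.46, 0.34 and 0.29.

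Oxysterols hold back SREBP processing and activate the liver X receptors, which drive sterol export. Of 8 genes of this arm, 4, 6, 5 and 0 rose, against 12.6%, 19.2%, 14.6% and 0.0364% of rows above the receptor level. Npc1, which moves cholesterol out of lysosomes, differed by 0.66, 0.82, 0.66 and 0.55 (F-test adjusted p = 0.0493), and Abcg1, a sterol exporter, by 0.52, 0.72, 0.77 and 0.66 (0.0496). Mylip, a target gene of the liver X receptors, differed by 0.57, 0.59, 0.55 and 0.70. With HC animals 5 and 6 as controls the differences were 0.32, 0.48, 0.33 and 0.22 for Npc1, 0.14, 0.34, 0.39 and 0.28 for Abcg1 and 0.22, 0.24, 0.20 and 0.35 for Mylip. Ch25h, which makes 25-hydroxycholesterol and is named after its values were seen, read 4.02, 4.47, 5.30 and 5.43 in HC, 5.07, 9.38 and 7.94 in CSD1, 7.44, 7.07, 7.25 and 6.94 in CSD7, 6.76, 7.02, 7.21 and 7.62 in CSD14 and 5.63, 5.59, 5.12 and 5.97 in CSDrec. CSD7 and CSD14 lay wholly above HC, CSD1 animal 4 lay among HC and CSDrec overlapped it. Its differences were 2.65 (SE 0.63, adjusted p = 0.0313), 2.37 (SE 0.58, 0.0239), 2.35 (SE 0.58, 0.0273) and 0.77 (SE 0.58, 0.4), and 2.09, 1.81, 1.79 and 0.21 when set against HC animals 5 and 6.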

How the data were processed

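Total RNA of sorted brain endothelial cells from 19 mice was measured on 1-colour arrays. The deposited table holds log2 values: per the methods, the authors ran RMA background correction, quantile normalization and median polish of probe sets in Partek, then took log2. The labels name Affymetrix Expression Console and RMA, and a different array type from the one in the methods (Clariom D, mouse). Of the tool versions and the genome build, nothing is stated: not given in the sources used here. By the methods the values were already normalized together, yet the deposited arrays still differed in their distribution. The SD over tested rows ran from 1.54 (HC animal 2) to 1.84 (CSD1 animal 18). The median of rows above the receptor level ran from 4.00 (HC animal 2) to 4.51 (CSD1 animal 4). A shift shared by most genes therefore cannot be read as a change of total expression.

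Of 72688 rows, 6732 control rows were left out and 65956 tested, of which 30638 carry 1 symbol, 2176 several and 33142 none. Each row was fitted with limma 3.58.1 in R 4.3.3 over all 19 arrays in 5 groups (14 residual and 3.60 prior degrees of freedom), with no further scaling. P-values of a comparison were adjusted by Benjamini-Hochberg over the whole set of tested rows and called under 0.05. The F-test asks whether any of the 4 stress groups differs from HC. No array had the same values as another (pairwise correlation 0.952 to 0.997). The members, branches, marker lists and other lists were chosen with earlier results of these data known. In each comparison, the genes given in full are those past the F-test and the 3 of lowest p in each branch, and in other lists 2 to 4 of lowest p; exceptions are named as such. Nothing in the labels tells whether HC animals 1 and 2 were handled apart from the rest.

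The fit was tested on simulated data: of 100 rows raised by log2 1 in CSD7, 85 of 100 were found among 65956 rows, and 95 of 100 raised by log2 2, with 11 false calls. In these data the noise was independent between rows. The number of arrays limits the precision. Alternatives left out each array in turn, left out HC animals 1 and 2, applied quantile normalization to the tested rows, tested only rows above the receptor level, averaged the rows of a gene, fitted 2 groups alone and ran the F-test without moderation. Promoters and loci are from RefSeq tables of GRCm38.p6. Figures were drawn with matplotlib 3.10.9 in Python 3.11.15.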

Additional observations from a re-analysis of the deposited data

Results flagged for a closer look

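In groups of 4 animals, a value was picked out where its gap to the nearest other animal took up nearly the whole range of the group. Of 112 such groups (28 genes in HC, CSD7, CSD14 and CSDrec), 10 held such a value, where chance alone gives about 1 in 20, and the 8 groups of branch means held 0. In CSD7, animal 16 was high in Mvk (5.25, the others 4.96 to 4.99), animal 9 was high in Fdft1 (5.88, the others 5.35 to 5.41) and animal 25 was low in Lss (3.96, the others 4.22 to 4.26). CSD14 animal 15 was low in Mvk (5.04, the others 5.13 to 5.15). CSD14 animal 13 was low in Elovl6 (3.42, the others 3.55 to 3.58) and Acsl5 (6.88, the others 7.00 to 7.01), and high in Acly by a very small margin (6.80, the others at 6.78). In CSDrec, animal 30 was high in Fdft1 (5.32, the others 5.11 to 5.13), animal 29 was low in Nsdhl (5.28, the others 5.38 to 5.40) and animal 31 was high in Lpin1 (5.78, the others 5.61 to 5.63). HC animals 1 and 2 were not picked out, because a pair of low animals leaves no single gap. No gene had stress groups on opposite sides of the HC mean.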

How the results depend on the processing

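The counts of genes called depend on the HC animals and the scaling. Without HC animals 1 and 2, the 13, 17 and 11 genes called higher in CSD1, CSD7 and CSD14 became 0, 0 and 0, and the 4 past the F-test became 0. With quantile normalization they became 0, 1, 1 and 0, with the fit of 2 groups alone 0, 0 and 0, and with the F-test without moderation 0 (18 of 28 at an unadjusted p under 0.05). Testing only rows above the receptor level gave 5 calls in CSDrec instead of 0 and 8 past the F-test. Leaving out each animal in turn gave 0 to 24 calls in CSD1, 0 to 27 in CSD7, 0 to 21 in CSD14, 0 to 19 in CSDrec and 0 to 18 past the F-test. Without CSD14 animals 12, 13, 14 or 15 the CSD14 count was 4, 4, 5 and 5, without CSD7 animals 16 or 17 the CSD7 count was 10, and without any 1 of the CSDrec animals the CSD1 count was 7.

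Without HC animals 1 and 2 the sterol median (0.50, 0.47, 0.39 and 0.29, CSD1 first and CSDrec last) became 0.19, 0.13, 0.089 and -0.013, and the fatty acid median of 0.59, 0.54 and 0.51 in CSD1, CSD14 and CSDrec became 0.30, 0.31 and 0.27. With quantile normalization they became 0.18, 0.20, 0.14 and 0.059, and 0.19, 0.27 and 0.22. The mean of all rows of a gene gave 0.41 for the fatty acid branch in CSDrec. Over single animals left out, the sterol median ran from 0.39 to 0.59, 0.35 to 0.59, 0.27 to 0.48 and 0.20 to 0.37, and the fatty acid median from 0.47 to 0.71, 0.56 to 0.72, 0.46 to 0.64 and 0.41 to 0.64. The cause of these changes was not tested. Among single genes, with quantile normalization Dhcr7 in CSD7 was at -0.015, Insig2 in CSDrec at -0.016 and Nsdhl in CSDrec at -0.033, and without HC animals 1 and 2 Insig2 in CSDrec was at -0.068. Of 53 gene differences followed, 41 were called, and all 41 lost their call without HC animals 1 and 2 and also with the fit of 2 groups alone, 39 with quantile normalization and 2 (Acsl5 in CSD1 and Scd1 in CSD7) with the mean of all rows of a gene. No paired analysis was possible because the animal numbers are not shared between groups. The number of arrays limits precision, and the dimmest genes, such as Elovl6 with a mean of 3.49, lie close to the receptor level of 3.10.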
